A study of Mus musculus with 9 samples.

Results

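The transcription factor ATF4 and 9 genes of its stress response were followed through 3 groups of mouse RGC cultures. The members were Atf4, Atf5, Ddit3, Chac1, Trib3, Sesn2, Nupr1, Fgf21, Gdf15 and Stc2, which are 10 of the 22322 genes of the expression table. They were named by gene symbol, but the set was chosen from results of these same libraries, in which Fgf21 and Chac1 were already known to be far lower in aging than in normal RGCs. The values of aging against normal RGCs are therefore a description of the members, without a test. The symbols matched 11 rows, because Ddit3 is listed under 2 identifiers, and the second of these (ENSMUSG00000116429) held 0 counts in every library. Of the 10 members, 9 had counts in every library and passed the low-count filter, and Stc2 had 0 counts in all 9 libraries.

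The wild-type RGCs were purchased cells kept in medium with serum. Normal RGCs were untreated, aging RGCs had received D-galactose, and aging RGCs + USCs medium had received D-galactose and then medium conditioned by urine-derived stem cells. The paper grew these stem cells in a special medium of their own, and no sequenced group received that medium unconditioned. Effects of conditioning and of a different base medium therefore cannot be told apart. Each group consisted of 3 replicate wells, so the spread between replicates is that between wells. Library totals were 18189610 to 22342283 expected counts. Levels are given as CPM, the counts scaled to a common library size with TMM factors. The label RGC was borne out by few of the markers searched. Of 11 RGC markers, 3 (Rbpms, Nefl and Isl1) had at least 10 counts in every library. Pou4f2 and Pou4f3 had 0 counts in all 9 libraries, and Thy1 and Nefh had at most 1 count in a library. Pou4f1 had 2 to 27, Nefm 1 to 24, Sncg 3 to 7 and Slc17a6 0 to 4 counts. The 11 RGC markers, led by Rbpms, Nefl and Isl1, summed to 138.9 to 150.05 CPM in normal, 99.2 to 102.6 CPM in aging and 75.4 to 83.5 CPM in medium-treated RGCs. The 5 epithelial markers, led by Krt8, Krt18 and Krt19, summed to at least 1047 CPM in each library, and the 5 mesenchymal markers, led by Vim, to at least 2128 CPM. Within these lists Cdh1 had 0 to 5 counts, Epcam 26 to 56 and Col1a2 0 to 9 counts in a library. In such bulk samples, fewer cells of a type and less RNA per cell cannot be told apart.

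ATF4 is a bZIP transcription factor of the integrated stress response. When a kinase phosphorylates the initiation factor eIF2α, for instance because amino acids are scarce or unfolded proteins fill the endoplasmic reticulum, general translation slows while translation of the Atf4 mRNA increases. ATF4 then pairs with C/EBP factors on composite DNA elements and switches on genes for amino acid supply, redox balance, feedback control of the stress response and, if stress persists, cell death. Because this control acts largely on translation, the mRNA levels measured here do not give the amount of ATF4 protein.

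The composite elements are the part of these genes on which ATF4 acts, so their promoters were searched for the core motif TGATGNAA on both strands. RefSeq promoters on GRCm38.p6, which run from 250 bases before to 50 bases after an annotated start, were found for 10 of 10 members in 12 windows. The motif was present in 4 of 10 members, compared with 4.51% of the 27025 genes in the promoter table and 3.97% of its 32851 windows. In each of the 4 it lay on the strand opposite to the gene and is therefore read as its reverse complement. The 250 bases before the start are shown for Chac1 (chr2:119350992-119351241, plus strand), Fgf21 (chr7:45615491-45615740, minus strand) and Nupr1 (chr7:126625471-126625720, minus strand), 5′ to 3′ along the gene, with the motif in capitals, because these 3 carry the element upstream of the start. In Trib3 the motif lay behind the RefSeq start, and 28 bases around it are shown (chr2:152344029-152344056, minus strand).
Chac1: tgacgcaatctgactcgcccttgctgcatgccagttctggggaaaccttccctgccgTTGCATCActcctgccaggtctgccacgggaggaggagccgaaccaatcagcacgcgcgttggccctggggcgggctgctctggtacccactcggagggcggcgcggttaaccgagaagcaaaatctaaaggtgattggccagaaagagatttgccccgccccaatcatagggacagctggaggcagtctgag
Fgf21: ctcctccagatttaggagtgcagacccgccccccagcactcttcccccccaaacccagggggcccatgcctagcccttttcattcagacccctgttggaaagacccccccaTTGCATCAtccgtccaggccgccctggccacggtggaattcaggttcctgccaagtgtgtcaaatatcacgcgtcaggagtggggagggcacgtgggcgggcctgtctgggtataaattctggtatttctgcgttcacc
Nupr1: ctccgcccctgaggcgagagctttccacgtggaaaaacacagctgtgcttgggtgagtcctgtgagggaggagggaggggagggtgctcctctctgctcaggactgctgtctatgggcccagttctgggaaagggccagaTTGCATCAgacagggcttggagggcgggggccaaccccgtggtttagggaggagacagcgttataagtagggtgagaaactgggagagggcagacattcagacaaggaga
Trib3: tagctcaggtTTACATCAgccgggcggg
Counted from +1 at the annotated start, the motif occupied positions -193 to -186 in Chac1, -139 to -132 in Fgf21, -110 to -103 in Nupr1 and 15 to 22 in Trib3. Chac1, Fgf21 and Nupr1 shared the same 8 letters, TTGCATCA, and Trib3 had TTACATCA. The endoplasmic reticulum stress element, CCAAT and CCACG separated by 9 bases, was found in 0 of the 10 members and in 0.137% of all genes. A window without a match says only that these letters are not in it. The RefSeq start used for Nupr1 lies inside the longer gene that GENCODE annotates. For Trib3 the start in GENCODE, at 152344032, lies beyond the motif, which is then upstream of it.

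All 9 expressed members were lower in aging RGCs than in normal RGCs, and all 9 were higher in aging RGCs + USCs medium than in aging RGCs. In aging RGCs the mean level was 7.59% of normal for Fgf21, 20.5% for Chac1, 29.1% for Trib3 and 32.5% for Ddit3, but 52.0% for Atf4 itself and 68.0% for Atf5. In the medium the members stood at 15.8% (Fgf21) to 89.2% (Atf5) of their normal level. A gene was called when its log2 fold change was 1 or more in size and its adjusted p was under 0.05; all adjusted p-values are from edgeR over the 12145 genes tested. By this rule 6 of 9 members were lower in aging RGCs, beside 1.56% of all genes tested. This count belongs to the comparison that chose the members and is no evidence about them. In medium-treated against aging RGCs, 3 of 9 members (Chac1, Trib3 and Fgf21) were called higher, beside 1.24% of all genes. Against normal RGCs, 3 of 9 (Fgf21, Chac1 and Gdf15) were called lower in the medium, beside 5.24% of all genes. Both comparisons with the medium share their aging or normal libraries with the first comparison. Because the set was chosen from results with low aging values, higher values in the medium than in these libraries are favoured in advance. Likewise, high values in the normal libraries favour lower values in the medium. Counts and adjusted p-values of the members in these comparisons are therefore not independent of that choice.

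**Figure D1:**
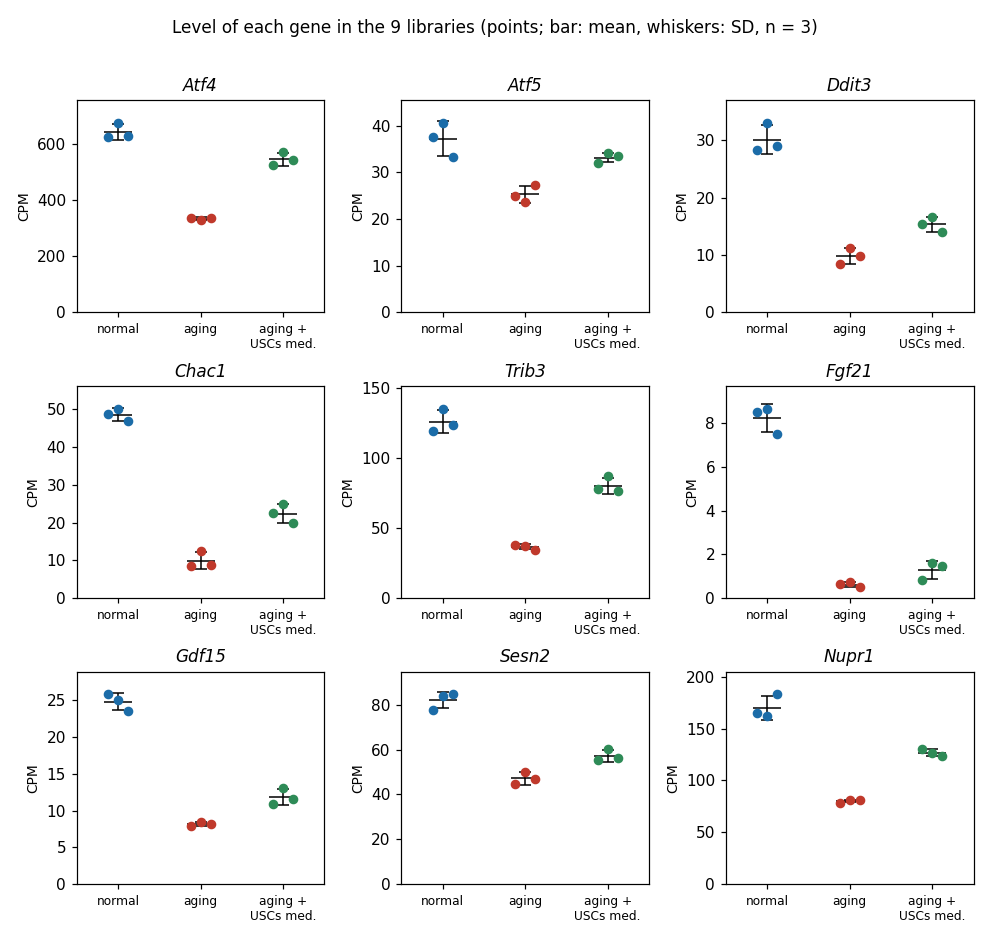
CPM (vertical axes, starting at 0) of the 9 expressed genes in the 3 normal, 3 aging and 3 medium-treated libraries; each point is 1 library, the bar is the mean and the whiskers are the SD (n = 3). The aging points lie below the normal points in all 9 panels, and the medium-treated points lie between, except that for Atf5 they overlap the normal points.

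Of the transcription factors, Atf4 (ENSMUSG00000042406, chromosome 15 from 80255184 to 80257541 of GRCm38) was the most abundant. It stood at 623, 676 and 629 CPM in the normal libraries, 337, 328 and 338 CPM in the aging libraries and 524, 570.1 and 542 CPM in the medium-treated ones. The 3 groups did not overlap, and the aging libraries varied least (SD 5.12 CPM, against 28.8 in normal RGCs). The log2 fold change was -0.94 (standard error, SE, 0.0356) for aging against normal RGCs. Atf4 rose in the medium relative to aging RGCs, by 0.71 on the log2 scale (SE 0.0357, adjusted p = 1.37e-15), and was still below normal RGCs there, by 1.18-fold (log2 fold change -0.24, adjusted p = 1.19e-06).

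Atf5, a related bZIP factor linked to the mitochondrial stress response, lies on chromosome 7 from 44812256 to 44816658 and overlaps Nup62 and Il4i1 on the other strand. Its level was 37.6, 40.6 and 33.3 CPM in normal, 24.9, 23.6 and 27.3 CPM in aging and 32.0, 34.0 and 33.4 CPM in medium-treated RGCs. It changed least of the 9 between aging and normal RGCs, with a log2 fold change of -0.56 (SE 0.0727). Between the medium and aging RGCs it rose by 0.39 (SE 0.0741, adjusted p = 6.19e-05). Between the medium and normal RGCs the values overlapped, and the log2 fold change of -0.17 had an adjusted p of 0.0431. That p was 0.115 by DESeq2 and reached 0.245 with normal replicate 2 left out.

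Ddit3 encodes CHOP, a factor that promotes cell death when stress lasts. It lies on chromosome 10 from 127290774 to 127296288 and overlaps Mars and Gm4189 on the other strand, and whether reads were counted by strand is not given in the sources used here. Its level was 28.4, 33.1 and 29.0 CPM in normal, 8.44, 11.2 and 9.82 CPM in aging and 15.4, 16.6 and 14.1 CPM in medium-treated RGCs, without overlap. Aging RGCs had 3.06 times less Ddit3 than normal RGCs (log2 fold change -1.62, SE 0.0953). It rose by 0.65 in the medium against aging RGCs (SE 0.103, adjusted p = 6.05e-06). In the medium it remained at 51.0% of its normal level, or -0.97 on the log2 scale (SE 0.0889, adjusted p = 2.18e-10), just short of the fold threshold. Without TMM factors, with upper-quartile factors or with limma on log2(FPKM + 1) or log2(FPKM + 0.1) the value was -1.07, -1.01, -1.03 or -1.06 and passed it.

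Chac1, which degrades glutathione, and Trib3, a pseudokinase that binds ATF4 and restrains it, are effectors that act inside the cell. Chac1, on chromosome 2 from 119351229 to 119354381, stood at 48.9, 50.3 and 46.9 CPM in normal, 8.54, 12.6 and 8.81 CPM in aging and 22.6, 24.9 and 19.8 CPM in medium-treated RGCs. Aging replicate 2 was the highest of its group, but it still lay well below every medium-treated library. The log2 fold change of Chac1 was -2.28 (SE 0.098) for aging against normal RGCs. In the medium Chac1 rose by 1.17 relative to aging RGCs (SE 0.107, adjusted p = 3.85e-10), and it was 2.17 times lower there than in normal RGCs (log2 fold change -1.12, SE 0.0866, adjusted p = 7.53e-12).

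Trib3, on chromosome 2 from 152337422 to 152344032, stood at 119, 135 and 124 CPM in normal, 37.7, 37.5 and 34.6 CPM in aging and 77.8, 86.9 and 76.2 CPM in medium-treated RGCs. The medium-treated libraries lay about midway between the other groups. Aging RGCs had 3.44 times less Trib3 than normal RGCs (log2 fold change -1.78, SE 0.0571). In the medium Trib3 rose by 1.13 relative to aging RGCs (SE 0.0592, adjusted p = 2.85e-15) and was 1.57 times lower than in normal RGCs, or -0.65 on the log2 scale (adjusted p = 1.43e-11).

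Sesn2 encodes sestrin 2, a leucine sensor that restrains mTORC1 and is also a target of p53. It lies on chromosome 4 from 132492032 to 132510501 and overlaps Gm12981 on the same strand. Its level was 77.8, 83.7 and 84.7 CPM in normal, 44.5, 50.1 and 46.7 CPM in aging and 55.3, 60.2 and 56.2 CPM in medium-treated RGCs. For aging against normal RGCs the log2 fold change of Sesn2 was -0.80 (SE 0.0534). Its rise in the medium over aging RGCs was the smallest of the 9 members, at 0.28 (SE 0.0554, adjusted p = 0.000102). Nupr1, a small chromatin-associated stress protein on chromosome 7 from 126623249 to 126630861, stood at 165, 162 and 183 CPM in normal, 78.7, 80.7 and 81.3 CPM in aging and 130.2, 127 and 123 CPM in medium-treated RGCs. The log2 fold change of Nupr1 was -1.08 (SE 0.0445) for aging against normal RGCs. It rose by 0.66 in the medium relative to aging RGCs (SE 0.0455, adjusted p = 1.16e-12). The 3 groups overlapped for neither gene. Sesn2 and Nupr1 were lower in the medium than in normal RGCs, with log2 fold changes of -0.52 and -0.42 (adjusted p = 1.33e-09 for each).

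Fgf21 and Gdf15 encode secreted factors that carry cellular stress to distant organs, the former as a metabolic hormone and the latter as an appetite-suppressing cytokine. Fgf21, on chromosome 7 from 45613886 to 45615490, had 197, 179 and 152 counts in normal, 12, 14 and 10 in aging and 16, 32 and 29 in medium-treated RGCs. As CPM these were 8.53, 8.67 and 7.50, then 0.649, 0.721 and 0.506, then 0.822, 1.59 and 1.49. The normal libraries stood far above all others, and the lowest medium-treated library was only slightly above the highest aging library. Fgf21 was the member that differed most between aging and normal RGCs, with 13.1 times less in aging RGCs (log2 fold change -3.71, SE 0.237, 95% interval -4.19 to -3.22). In the medium Fgf21 rose relative to aging RGCs by 1.05 (SE 0.312, adjusted p = 0.00575, 95% interval 0.41 to 1.69). Without aging replicate 3, medium-treated replicate 2 or medium-treated replicate 3 this value was 0.92, 0.88 or 0.95 and no longer reached the fold threshold. Against normal RGCs it was 6.31 times lower in the medium, or -2.66 on the log2 scale (SE 0.206, adjusted p = 7.56e-12).

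Gdf15, on chromosome 8 from 70629393 to 70632456, stood at 25.8, 25.1 and 23.6 CPM in normal, 7.95, 8.40 and 8.15 CPM in aging and 10.9, 13.0 and 11.5 CPM in medium-treated RGCs. The groups did not overlap, and the medium-treated libraries were closer to the aging ones. Aging RGCs had 3.04 times less Gdf15 than normal RGCs (log2 fold change -1.60, SE 0.0911). It rose by 0.53 in the medium relative to aging RGCs (SE 0.0999, adjusted p = 5.22e-05) and was 2.10 times lower than in normal RGCs (log2 fold change -1.07, SE 0.0859, adjusted p = 1.49e-11). Stc2, a secreted glycoprotein and known ATF4 target, had 0 counts in each library, which allows a level of up to 0.130 to 0.162 CPM in a library (3 counts, counting error only).

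**Figure D2:**
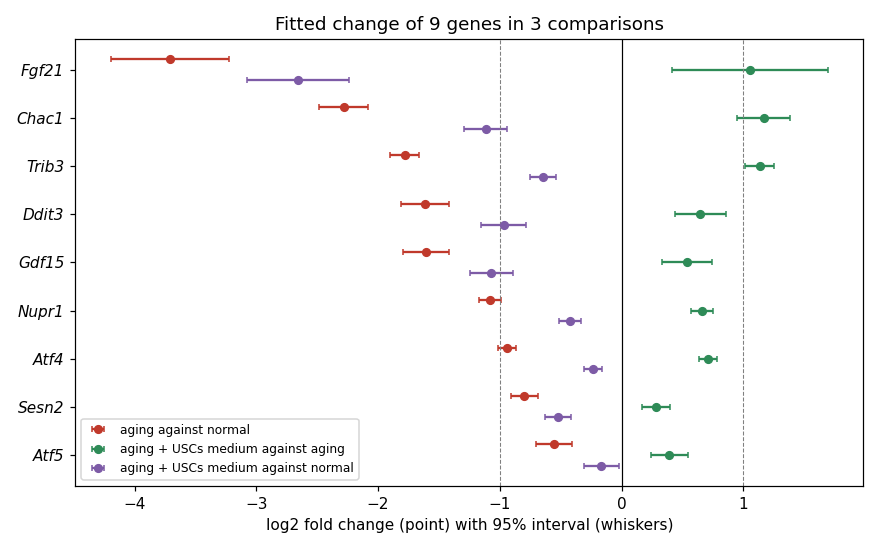
Fitted log2 fold change (horizontal axis; point) with its 95% interval (whiskers) of the 9 expressed genes in the 3 comparisons; dashed lines mark a fold change of 2 in either direction. Fgf21, at -3.71, is farthest from 0 in aging against normal RGCs, and the values of the medium against aging RGCs lie between 0.28 (Sesn2) and 1.17 (Chac1).

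Leaving the fold threshold aside, 9 of 9 members had an adjusted p under 0.05 in the medium against aging RGCs, all higher, beside 27.1% of all genes tested. Against normal RGCs 9 of 9 were lower in the medium at that threshold, beside 29.9% of all genes, Atf5 being the member that did not hold under other settings. In aging against normal RGCs 9 of 9 were lower, beside 23.0% of all genes, a count that again belongs to the comparison that chose them. The counts for the medium share libraries with that comparison and are not independent of the choice. Group values were fully separate for 9 of 9 members in aging against normal RGCs (26.0% of all genes, in the same direction), 9 of 9 in the medium against aging RGCs (30.4%) and 8 of 9 in the medium against normal RGCs (31.9%). The median log2 fold change of the 9 members was -1.60, 0.66 and -0.65 in the 3 comparisons, beside 0.0018, -0.0067 and -0.013 for all genes tested.

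**Figure D3:**
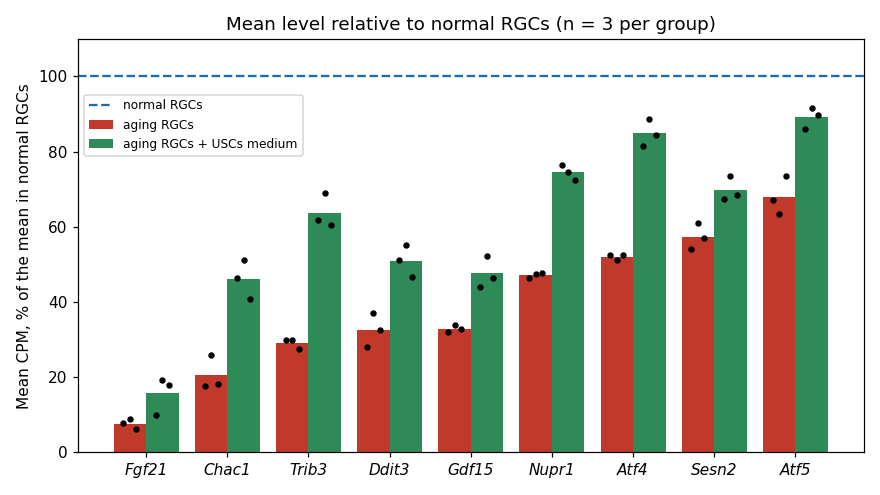
Mean CPM in aging RGCs (red bars) and in aging RGCs + USCs medium (green bars) as a percentage of the mean in normal RGCs (dashed line at 100) for the 9 expressed genes, ordered by their level in aging RGCs; black points are the 3 libraries of each group. Fgf21 is lowest in both, at 7.59% and 15.8%, and Atf5 highest, at 68.0% and 89.2%.

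Within groups the ranks of the members were uneven among wells, and the matching shares over all genes were not computed. Replicate 2 had the highest CPM of its group for 8 of 9 members in medium-treated, 6 of 9 in normal and 5 of 9 in aging RGCs. Medium-treated replicate 1 was the highest for 1 of 9 members, lying in the middle for 3 and lowest for 5. Medium-treated replicate 3 was the highest for 0, in the middle for 5 and lowest for 4. The macrophage markers differed between these libraries. Without Cd68, they summed to 3.29 CPM in medium-treated replicate 1, 1.94 CPM in replicate 2 and 18.4 CPM in replicate 3. In aging RGCs this sum was 2.73 to 10.3 CPM, and in normal RGCs 16.4 to 32.5 CPM. Leaving out medium-treated replicate 3, and equally medium-treated replicate 2 or aging replicate 3, reduced the members called in the medium against aging RGCs from 3 to 2, Fgf21 being the call lost. All 9 macrophage markers together, Aif1 being at most 1 count in a library, summed to 58.0 to 68.6 CPM in normal, 44.4 to 50.7 in aging and 30.6 to 53.2 CPM in medium-treated RGCs. Like the members, this sum and that of the RGC markers were lower in aging than in normal RGCs. In the medium all 9 members were higher than in aging RGCs. The RGC marker sum was lower there (75.4 to 83.5 against 99.2 to 102.6 CPM), and the macrophage sum overlapped that of aging RGCs. Of the main RGC markers Rbpms, Nefl and Isl1, Nefl alone had fewer counts in each medium-treated library than in each aging library. Nefl had 677 to 806 counts in aging and 313 to 367 in medium-treated libraries. In the same order, Rbpms had 897 to 1017 and 909 to 1011 counts, and Isl1 215 to 240 and 235 to 284. The part of these cell types in the result was not tested.

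Levels of different genes were compared as FPKM, which accounts for transcript length. In normal RGCs the order was Atf4 (383 FPKM), Nupr1 (217), Trib3 (64.0), Ddit3 (38.3), Chac1 (30.6), Sesn2 (24.3), Atf5 (22.4), Gdf15 (16.5) and Fgf21 (8.91). Among neighbours in that order, the replicate values of Sesn2 and Atf5 alone overlapped. Atf4, Nupr1 and Trib3 kept the first places in each group, and Gdf15 and Fgf21 the last. In aging RGCs Atf5 moved to the fourth place at 16.2 FPKM, ahead of Sesn2 (13.7) and Ddit3 (12.9), whose values overlapped, while Chac1 (6.18) overlapped Gdf15 (5.46). In the medium the order was that of aging RGCs except that Ddit3 (18.3 FPKM) stood ahead of Sesn2 (15.8), with overlapping values. Chac1 stood at place 7 of 9 in aging RGCs and in the medium, against place 5 in normal RGCs.

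The genes whose profile was most like that of Fgf21 over the 9 libraries, among non-members whose average log2 CPM was 1 or more, were Brd3os (Pearson r = 0.993 of log2 CPM), Zfp598 (0.989), Eml2 (0.988), Hid1 (0.986) and Rhoq (0.986). Of the members, Gdf15 (0.990), Sesn2 (0.977) and Ddit3 (0.962) were closest to it, and Atf5 (0.815) was the least alike. These values are descriptions, since the 9 libraries form 3 groups and share their scaling. Pearson r does not compare the size of changes. Hid1 had a mean of 31.8 CPM in normal, 11.5 in aging and 13.9 in medium-treated RGCs, whereas Rhoq had 130, 98.0 and 103 CPM. The means of Fgf21 were 8.24, 0.625 and 1.30 CPM in the same order.

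The pathway lists that follow were chosen with results of these libraries known, so their counts and p-values in aging against normal RGCs are no independent evidence of a direction. The comparisons with the medium share their aging or normal libraries with that one. For lists chosen as low in aging RGCs, a rise in the medium over aging RGCs is favoured in advance. List counts and p-values in the medium are therefore not independent of that choice either. At an adjusted p under 0.05, 23.6% of all genes were higher and 23.0% lower in aging against normal RGCs. The shares were 27.1% and 26.0% in the medium against aging RGCs, and 30.6% and 29.9% in the medium against normal RGCs. List counts near these shares are no result about the list. The genes that start or end the signal to ATF4 act on eIF2α. Of its kinases, Eif2ak3 (PERK, the sensor of the endoplasmic reticulum) fell from 29.3 ± 1.60 CPM (SD, n = 3) in normal to 22.7 ± 2.29 CPM in aging RGCs, or by 0.37 on the log2 scale (adjusted p = 0.000241). Eif2ak2 (PKR) rose by 0.23 (adjusted p = 3.06e-05), and Eif2ak4 (GCN2, the sensor of uncharged tRNA) and Eif2ak1 (HRI) had log2 fold changes of -0.02 and -0.04 with adjusted p of 0.742 and 0.589. Ppp1r15a (GADD34), the phosphatase subunit that resets eIF2α and an ATF4-dependent gene itself, fell from 99.5 ± 14.2 to 45.5 ± 1.62 CPM in aging RGCs (-1.13 on the log2 scale, adjusted p = 6.48e-14). In the medium it was 51.4 ± 0.802 CPM, a rise of 0.18 over aging RGCs (adjusted p = 0.0387), and its log2 fold change against normal RGCs was -0.95. Of the 12 kinase, phosphatase, eIF2 and eIF2B genes, 4 had an adjusted p under 0.05 in the higher direction in aging against normal RGCs (23.6% of all genes) and 5 in the lower direction (23.0%). In the medium 9 were higher than in aging RGCs (27.1% of all genes) and 0 lower (26.0%), or 6 and 2 without TMM factors.

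The partners of ATF4 behaved alike in part. Of 9 bZIP partners and related factors, 6 fell (23.0% of all genes) and 1 rose (23.6%) in aging against normal RGCs at an adjusted p under 0.05. In the medium against aging RGCs 8 rose (27.1%) and 0 fell (26.0%), or 8 and 1 without TMM factors. Jdp2, a repressor of the AP-1 family, fell from 38.5 ± 2.09 to 17.3 ± 1.61 CPM (SD, n = 3; -1.15 on the log2 scale, adjusted p = 6.36e-13) and was the only one of the 9 past the fold threshold there. Cebpb and Cebpg, partners of ATF4 on composite elements, fell by 0.87 and 0.59 on the log2 scale (adjusted p = 3.33e-12 and 1.08e-11), and rose in the medium by 0.68 and 0.45. Cebpd, an acute-phase C/EBP factor, went another way. It rose from 7.68 ± 0.757 CPM in normal to 10.3 ± 0.602 in aging and 27.0 ± 2.29 CPM in medium-treated RGCs, the last step being 1.39 on the log2 scale (adjusted p = 5.93e-13).

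Among 14 other stress targets of ATF4, 13 were tested. Of these, 10 fell (23.0% of all genes) and 0 rose (23.6%) in aging against normal RGCs at an adjusted p under 0.05. Past the fold threshold were 4 of them, all lower (1.56% of all genes). These 4 were Pck2, Jdp2, Ppp1r15a and Ddit4. The lists overlap: Atf3, Cebpg and Jdp2 were also counted among the bZIP factors above, and Ppp1r15a among the eIF2 genes. Pck2, the mitochondrial PEPCK, fell from 169.5 ± 6.15 to 61.1 ± 1.83 CPM (SD, n = 3; -1.47 on the log2 scale, adjusted p = 3.69e-20) and stood at 132 ± 8.08 CPM in the medium, a rise of 1.11 (adjusted p = 2.59e-17). Ddit4 (REDD1), an inhibitor of mTORC1, fell from 123.2 ± 5.92 to 59.2 ± 0.232 CPM (-1.06 on the log2 scale, adjusted p = 1.84e-16) and stood at 89.7 ± 5.82 CPM in the medium. Of the 13, 9 rose (27.1% of all genes) and 2 fell (26.0%) in the medium against aging RGCs, or 7 and 3 without TMM factors. The 28 amino acid targets, a list chosen with that direction already known, comprise enzymes, transporters and tRNA synthetases that supply translation. All 28 were lower (23.0% of all genes) in aging against normal RGCs at an adjusted p under 0.05, with a median log2 fold change of -0.92. Past the fold threshold were 11 of them (1.56% of all genes were called lower). The largest falls were those of Cth (-1.88), Gpt2 (-1.83), Slc7a11 (-1.79) and Slc6a9 (-1.52). Of the 28, 26 rose (27.1% of all genes) and 2 fell (26.0%) in the medium against aging RGCs, with a median of 0.58. Higher past the fold threshold were 5 (1.24% of all genes). Cth, which makes cysteine from cystathionine, rose most among them, from 7.40 ± 0.624 to 25.5 ± 2.51 CPM (1.78 on the log2 scale, adjusted p = 4.38e-14). Asns, the asparagine synthetase, rose from 116 ± 2.64 to 299 ± 3.19 CPM, near its normal 309 ± 15.5 CPM (medium against normal: -0.05 on the log2 scale, adjusted p = 0.278). Against normal RGCs 17 of the 28 were lower in the medium (29.9% of all genes) and 3 higher (30.6%), or 23 and 1 without TMM factors. Past the fold threshold, 2 of them (Slc6a9 and Cbs) were lower (5.24% of all genes) and 0 higher (1.47%).

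The other arms of the unfolded protein response act through ATF6 and XBP1 on chaperones and folding enzymes. Of 17 targets of ATF6 and XBP1, 9 fell (23.0% of all genes) and 4 rose (23.6%) in aging against normal RGCs. Past the fold threshold were 0 in either direction (1.09% of all genes were called higher and 1.56% lower), and the median log2 fold change was -0.13. Against aging RGCs 16 rose (27.1%) and 1 fell (26.0%) in the medium, with a median of 0.43, or 13 and 1 without TMM factors. Again 0 were past the fold threshold (1.24% of all genes were called higher and 4.21% lower). Hspa5 (BiP), the main chaperone of the endoplasmic reticulum, stood at 1191 ± 103 CPM in normal, 986 ± 22.7 in aging and 1576 ± 20.96 CPM in medium-treated RGCs (SD, n = 3). Unlike the members, it was above normal RGCs in the medium, by 0.40 on the log2 scale (adjusted p = 5.09e-10). The 6 genes of the mitochondrial unfolded protein response, with which Atf5 is linked, had a median log2 fold change of -0.063 in aging against normal RGCs. Of these, 3 were lower (23.0% of all genes) and 2 higher (23.6%), and 6 of 6 rose (27.1%) in the medium against aging RGCs (4 of 6 without TMM factors).

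**Figure D4:**
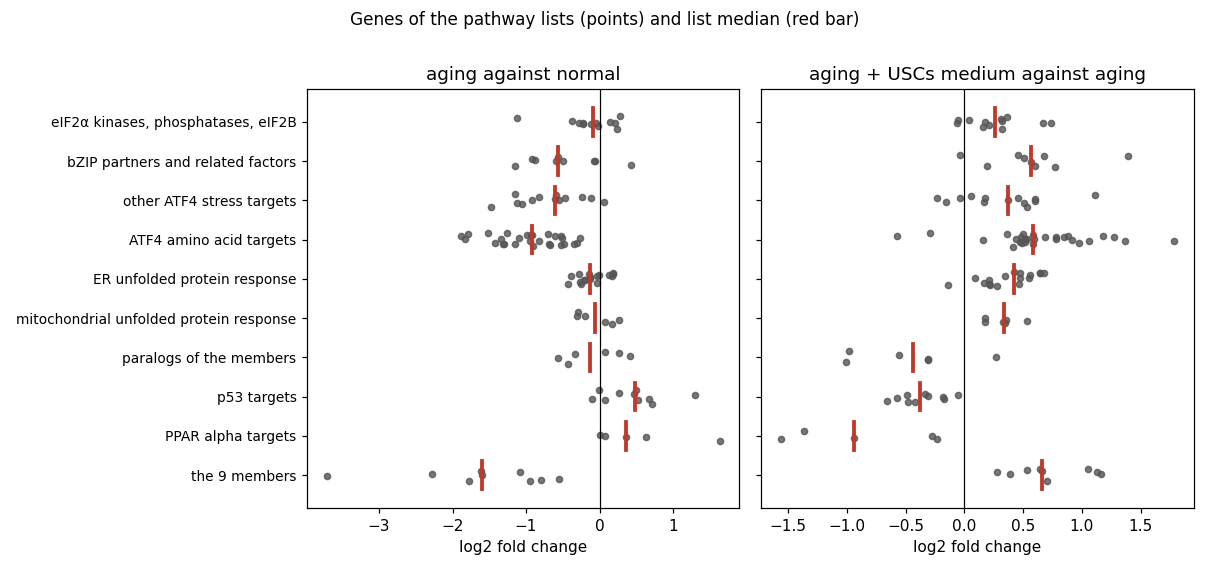
Log2 fold change (horizontal axes) of each tested gene of the pathway lists (points; vertical scatter only separates them) and the median of each list (red bar), for aging against normal RGCs (left) and aging RGCs + USCs medium against aging RGCs (right). The median of the 28 amino acid targets is -0.92 on the left and 0.58 on the right, that of the 9 members -1.60 and 0.66, and that of the p53 targets 0.48 and -0.38.

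Gdf15 and Sesn2 are also targets of p53, and Fgf21 of PPARα, so these pathways were set beside them. Of 10 p53 targets tested, 7 rose (23.6% of all genes) and 0 fell (23.0%) in aging against normal RGCs. The median log2 fold change was 0.48, and Gdf15 and Sesn2 were lower there. The targets that passed in neither direction were Cdkn1a, Mdm2 and Btg2. Their log2 fold changes were -0.003, 0.08 and -0.10 (adjusted p = 0.955, 0.164 and 0.233). A part of p53 in the levels of the members was not tested. Ccng1 (cyclin G1) rose from 224 ± 5.92 to 551 ± 6.77 CPM (SD, n = 3; 1.30 on the log2 scale, adjusted p = 2.35e-22) and stood at 393 ± 6.46 CPM in the medium. Of the 10, 9 fell (26.0% of all genes) and 0 rose (27.1%) in the medium against aging RGCs. Of 8 PPARα targets 5 were tested, and 3 rose (23.6% of all genes) and 0 fell (23.0%) in aging against normal RGCs. All 5 fell (26.0%) in the medium against aging RGCs. Angptl4 had the largest change of these in aging RGCs, with a value of 1.64 on the log2 scale, and in the medium against aging RGCs Cpt1a fell by 1.56 and Angptl4 by 1.37 on the log2 scale (adjusted p = 1.21e-21 and 2.35e-12).

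The close relatives of the members did not follow them as a group. Of 6 paralogs tested, 3 fell (23.0% of all genes) and 2 rose (23.6%) in aging against normal RGCs. In the medium against aging RGCs 5 fell (26.0%) and 1 rose (27.1%), or 5 and 0 without TMM factors. Sesn1 was also counted among the p53 targets. Sesn3, a sestrin like Sesn2, stood at 98.7 ± 8.20 CPM in normal, 73.4 ± 3.24 in aging and 36.6 ± 1.60 CPM in medium-treated RGCs (SD, n = 3), the last step being -1.003 on the log2 scale (adjusted p = 4.07e-14). Stc1, the relative of the absent Stc2, had 82.1 ± 2.11, 64.9 ± 1.57 and 32.9 ± 2.08 CPM in the same order. Trib2 fell likewise, from 30.8 ± 4.53 to 20.8 ± 0.292 and 14.1 ± 0.940 CPM. Trib1 and Sesn1 rose in aging RGCs, by 0.41 and 0.27 on the log2 scale (adjusted p = 9.94e-07 and 0.0235), and fell in the medium.

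Of the receptor and co-receptor genes listed for the secreted members, Fgfr1 alone had more than 40 counts in a library. FGF21 signals through an FGF receptor with the co-receptor β-Klotho. Fgfr1 was expressed at 177 ± 6.09 CPM in normal, 150.4 ± 7.34 in aging and 163 ± 3.77 CPM in medium-treated RGCs (SD, n = 3), but Klb, which encodes β-Klotho, had 0 to 2 counts in a library. Gfral, the receptor of GDF15, had 0 counts in all 9 libraries, and its co-receptor Ret had at most 1 count in a library. Fgfr2 had 0 counts throughout and Fgfr3 14 to 40 counts.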

How the data were processed

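RNA of 9 mouse RGC cultures was sequenced after oligo(dT) enrichment, 3 of each group, grouped by their labels. The authors deposited an expected count and an FPKM value for each gene and library. Per the labels the genome build was mm10, while aligner, counting program and strand setting were not given in the sources used here. Between 6.92% and 7.38% of the expected counts of a library were not whole numbers, and all were rounded before testing (those of the members were whole).

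Counts were tested with edgeR 4.0.16 in R 4.3.3. After filterByExpr 12145 genes remained, TMM factors (0.956 to 1.03) were applied, and all 9 libraries entered 1 model with group means (6 residual degrees of freedom, biological coefficient of variation 3.78%). Quasi-likelihood F tests gave p-values, which were adjusted over all genes tested by the Benjamini-Hochberg method. The script was tested on simulated data. Alternatives were DESeq2 1.42.0, other scaling factors and filters, the replicate number as a block, limma 3.58.1 on log2(FPKM + 1) and log2(FPKM + 0.1), and leaving out each library. CPM of a member are counts scaled by these factors.

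Members and pathway lists were chosen with earlier results of these data known. All members were named. From each pathway list and comparison, up to 4 called genes with the largest change were named, plus kinases, receptors and paralogs that a sentence on a member needs. After their values were seen, Cebpb, Cebpg, Hspa5, Cdkn1a, Mdm2, Btg2 and the marker genes were named too. Atf3 was named because it is shared between lists. Coordinates are from GENCODE M21 on GRCm38, and promoters from RefSeq on GRCm38.p6.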

Additional observations from a re-analysis of the deposited data

How the results depend on the processing

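Over all alternatives run, the 27 fold changes of the 9 members kept their direction. The count of members called lower in aging against normal RGCs was 6 with each library left out. In the medium against aging RGCs 3 members were called, 2 to 3 with a library left out. The number was 9 without a fold threshold, 6 at a fold change of 1.5 and 1 with limma on log2(FPKM + 1). In the medium against normal RGCs 3 were called, 3 to 4 with a library left out, 9 without a fold threshold and 5 at a fold change of 1.5. Ddit3 made it 4 without TMM factors, with upper-quartile factors, with both limma settings and without normal replicate 1 or medium-treated replicate 2. Of all genes, 322, 661 and 816 were called in the 3 comparisons (aging against normal RGCs, the medium against aging RGCs, the medium against normal RGCs), and 308 to 341, 632 to 690 and 789 to 875 with a library left out. Without a fold threshold the numbers were 5649, 6446 and 7350, and at a fold change of 1.5 they were 961, 1435 and 1889. At the main threshold, limma gave 66, 129 and 229 on log2(FPKM + 1), and 242, 532 and 726 on log2(FPKM + 0.1). Without TMM factors the median of all genes in the medium against normal RGCs shifted by -0.10 on the log2 scale, and Fgf21 rose by 0.97 in the medium against aging RGCs, short of the fold threshold. The causes of these shifts were not tested.

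Same-numbered replicates of different groups deviated from their group means with correlations of -0.03 to 0.05 across genes, so libraries of 1 number were not taken as pairs. A block for replicate number gave 318, 657 and 809 of all genes and 6, 3 and 3 members as called. Fgf21 had 10 to 32 counts in aging and medium-treated libraries, which limits the precision of its change between them.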
